A study of Mus musculus with 6 samples.

Results

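The 46 genes described here encode the machinery of autophagy and the lysosome. They were chosen by name, as the rows of the deposited gene table whose symbol is on a list ordered by step: initiation (14 genes), conjugation (12), fusion (5), the lysosome (12) and the transcription factors that govern lysosomal genes (3). All 46 were found among the 17034 genes with values, and all 46 passed the filter on low counts. Polyadenylated RNA came from the gastrocnemius, a mixed calf muscle, of male mice aged 8 weeks, with 3 libraries per genotype. Mice labelled TRa_mKO were Myf5-Cre; Thra fl/fl: both alleles of Thra, which encodes the thyroid hormone receptor alpha, were floxed, and Cre recombinase was driven by Myf5, which is active in embryonic muscle precursors, so cells of the muscle from other lineages would keep the gene. Mice labelled WT were littermates with the same floxed copies and no Cre, so both genotypes share the floxed allele. The series concerns muscle loss and mitophagy, and the comparison asks whether transcripts of the general autophagy machinery differ between the genotypes.

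Autophagy encloses cytoplasm or a worn organelle in a double membrane, the autophagosome, and delivers it to the lysosome for digestion. The ULK kinase complex starts the process, a phosphatidylinositol 3-kinase complex marks the site, conjugation enzymes attach LC3 and GABARAP proteins to the growing membrane, and tethers and SNARE proteins fuse the closed vesicle with the lysosome. In muscle the pathway clears damaged mitochondria and supplies amino acids during fasting, and loss of lysosomal acid alpha-glucosidase (Gaa) causes the glycogen storage disorder Pompe disease. TFEB, TFE3 and MITF are related transcription factors that bind a palindromic element, CLEAR, near the start of many lysosomal genes.

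Because CLEAR is the element these factors bind, its core was looked for in the promoters of the members. Promoter sequences (RefSeq, build GRCm38.p6, 250 bases before to 50 bases after the start site) were found for 37 of the 46 members. The inner 8 bases of the element, TCACGTGA, which read the same on both strands, were in the promoters of 6 members (16.2%). Over all 27025 gene symbols with promoters of this length 1.12% had it in at least 1 promoter, and 0.974% of the 32851 single promoters held it. The 7 bases TCACGTG on either strand, which the 8-base match contains, were in 10 of 37 members (27%) and in 4.29% of all symbols (3.77% of promoters). The 6 members with the 8-base match are shown as 30 bases of the gene's own strand, 5′ to 3′, with the match in capitals, to show the element itself in the genes whose levels follow. A match is a run of letters in this window and does not show that a factor binds there.
Mcoln1: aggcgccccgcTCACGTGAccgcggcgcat
Ctsa: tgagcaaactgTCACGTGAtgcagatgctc
Ctsd: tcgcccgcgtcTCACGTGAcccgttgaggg
Atp6v0d1: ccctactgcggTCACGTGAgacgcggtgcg
Atp6v1a: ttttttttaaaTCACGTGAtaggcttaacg
Atg3: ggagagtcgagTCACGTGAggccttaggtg
These windows lie at chr8:3500462-3500491 (plus strand) for Mcoln1, chr2:164833749-164833778 (plus) for Ctsa, chr7:142387908-142387937 (minus) for Ctsd, chr8:105566050-105566079 (minus) for Atp6v0d1, chr16:44139373-44139402 (minus) for Atp6v1a and chr16:45158746-45158775 (plus) for Atg3. Counted from the start site, the first base of the match stood at -46 in Mcoln1, -13 in Ctsa, -99 in Ctsd, -4 in Atp6v0d1, -132 in Atp6v1a and -72 in Atg3. Ctsa held a second 8-base match, not printed, at 5 bases after the start (counted from 1). Lamp1 held the 7-base form at -62, -45, -28 and -16, Gaa at -141, Atg7 at -133 and Atg14 at -1. Atg3, Ctsd and Mcoln1 held a 7-base match in addition to the 8-base match.

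Values are CPM, counts scaled to a common library size and composition, and differences are log2 fold changes of TRa_mKO over WT. Library totals lay between 12390527 and 14488500 counts. Of the targeted gene, Thra, 78.8, 92.8 and 96.8 CPM were counted in WT replicates 1 to 3, and 129, 118 and 101 CPM in TRa_mKO replicates 1 to 3 (log2 fold change 0.37, SE 0.12, adjusted p = 0.117 by edgeR). Its counts are fractional, which is taken below as a sign, not proof, that a gene shares reads with another feature. A count over the whole gene checks neither the deletion nor the labels, so every direction here rests on the labels. The 11 muscle fibre markers, among them Acta1, Ckm and Myh4, were counted in every library and summed to 101000 to 133000 CPM in WT and 125000 to 142000 CPM in TRa_mKO. The sums of 2 other marker lists had all libraries of the genotypes apart. Slow-fibre markers (8 genes) summed to 1110 to 2520 CPM in WT and 4580 to 6650 CPM in TRa_mKO, and endothelial markers (6 genes) to 1040 to 1290 CPM in WT and 744 to 998 CPM in TRa_mKO. Sums of leukocyte, fibroblast, adipocyte, red blood cell and Schwann cell markers overlapped, and no marker of any list was at 0 in any library. The part of these cell types in the values below was not tested, and in whole muscle fewer cells of a type and less RNA per cell cannot be told apart.

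Of the 46 members, 0 had an adjusted p below 0.05 (edgeR, Benjamini-Hochberg over all genes). Of the 13118 genes tested 4.17% did, 2.52% higher and 1.65% lower in TRa_mKO. DESeq2 called 1 member, Ctsz, and limma-voom called 0. Over all genes DESeq2 called more than edgeR, 461 higher and 301 lower in TRa_mKO against 331 and 216. With limma-voom these counts were 311 and 197. At an unadjusted p below 0.05 there were 4 members (8.7%), Wipi2, Gabarap and Atp6v1a with higher values and Ctsz with lower values in TRa_mKO, against 17.9% of all genes. This balance depended on the fit. With library size only, 0 members were higher and 5 lower at this unadjusted threshold. The shift was not particular to the members: genes past the adjusted threshold went from 331 higher and 216 lower to 213 and 255. Without TRa_mKO replicate 1 there were 5 members higher and 4 lower. The share of all genes at the unadjusted threshold was not computed for these 2 fits. All 3 TRa_mKO libraries stood apart from all 3 WT libraries in 10 members (21.7%; 6 higher, 4 lower), against 23.2% of all genes (13.2% higher, 10.1% lower), so this share lies close to the background. The members split evenly, with 23 fold changes above 0 and 23 below, a median of 0.00 and a range from -0.39 to 0.33, and the median over all genes was 0.00. The change was under 1.2-fold in either direction for 44 members (95.7%; 73.3% of all genes).

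The intervals show which changes the data leave room for. The 95% confidence interval stayed within 1.5-fold in either direction for 44 of 46 members (95.7%), as it did for 66.1% of all genes. The exceptions were Atg10, whose interval ran from -0.04 to 0.69 on the log2 scale, and Ctsz, from -0.61 to -0.17. The share within 1.5-fold and the share under 1.2-fold were not matched for level. Every member had a WT mean of at least 8.11 CPM, whereas the genes tested include less counted ones. Aif1, at 0.64 CPM in WT, had an interval from -0.87 to 1.23. The median half-width of the interval was 0.22 for the members and 0.28 for all genes. A p above the threshold does not show that the levels are equal.

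**Figure D1:**
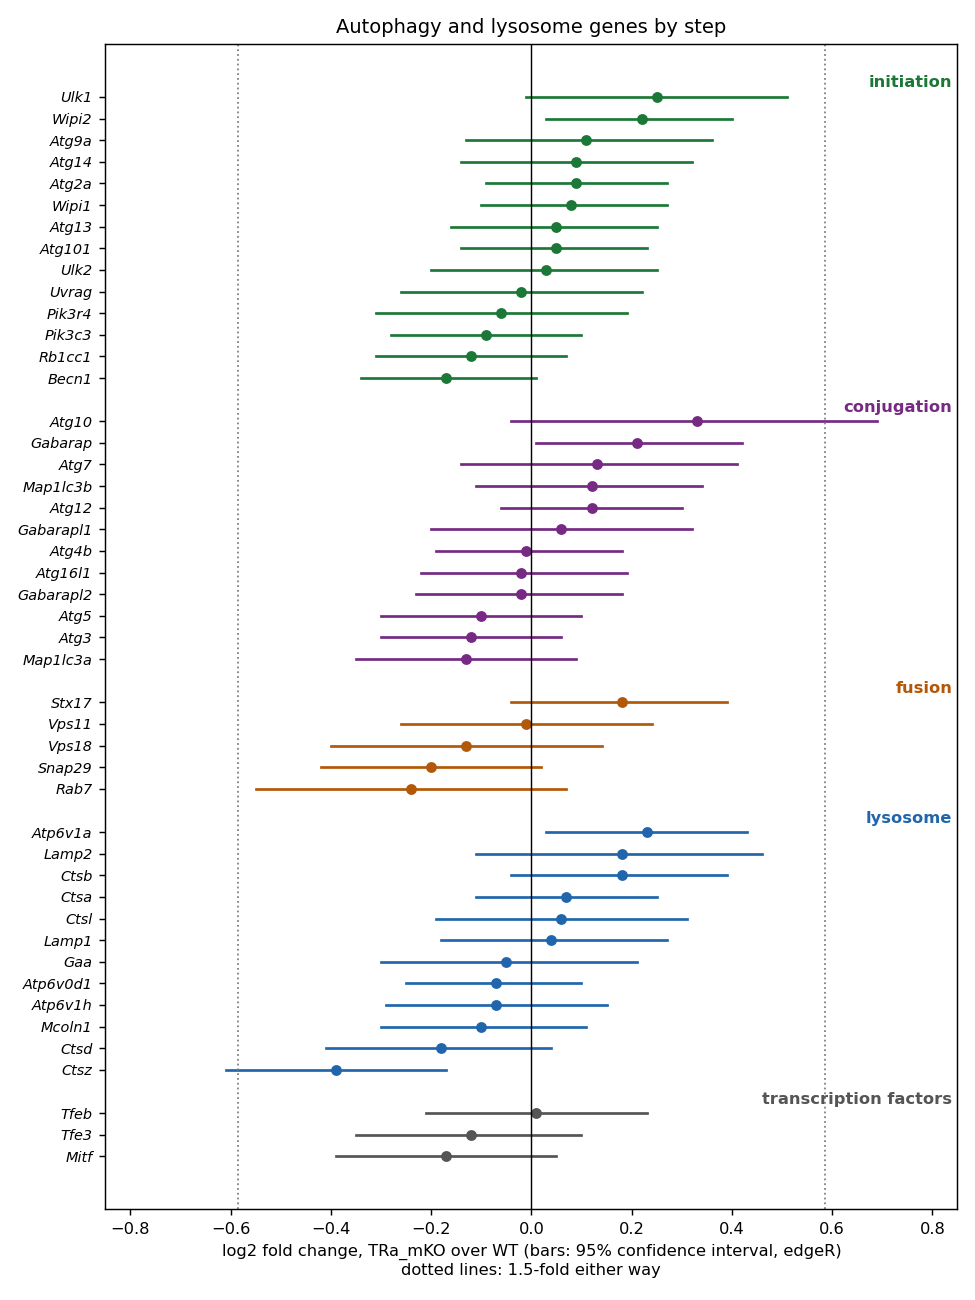
Log2 fold change of TRa_mKO over WT (horizontal axis) for each of the 46 genes, ordered within its step; points are edgeR estimates, bars 95% confidence intervals and dotted lines 1.5-fold either way. Values run from -0.39 (Ctsz) to 0.33 (Atg10), and the bars of these 2 genes are the ones that cross a dotted line.

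Summed over the 46 members, the libraries held 5164 ± 172 CPM in WT and 5131 ± 188 CPM in TRa_mKO (mean ± SD, n = 3 each). The lysosome supplied the most, with 2675 ± 84.6 CPM in WT and 2665 ± 108 CPM in TRa_mKO. Fusion genes summed to 595, 672 and 648 CPM in WT against 648, 568 and 473 CPM in TRa_mKO, which overlap. The median coefficient of variation of a member was 5.56% over the WT libraries and 5.95% over the TRa_mKO libraries.

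Initiation begins with the ULK complex, in which Ulk1 and Ulk2 are the kinases, Rb1cc1 (FIP200) the scaffold, and Atg13 and Atg101 the adaptors. None of the 5 passed the test, and 4 of the 5 fold changes were above 0. Ulk1 measured 71.8, 79.2 and 88.1 CPM in WT against 85.2, 110 and 89.3 CPM in TRa_mKO (log2 fold change 0.25, SE 0.12, adjusted p = 0.304). TRa_mKO replicate 2 was the highest of the 6, and WT replicate 3 lay within the TRa_mKO range. Ulk2, the member of the complex with the most counts, measured 101, 117 and 124 CPM in WT against 121, 109 and 119 CPM in TRa_mKO (0.03, SE 0.10). Rb1cc1 measured 96.6, 105 and 110 CPM against 96.5, 93.4 and 96.7 CPM (-0.12, SE 0.09), with WT replicate 1 at the level of the TRa_mKO libraries. Atg13 and Atg101 each had a log2 fold change of 0.05.

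The phosphatidylinositol 3-kinase complex joins the lipid kinase Pik3c3 (VPS34) and its regulatory subunit Pik3r4 with Becn1 (beclin 1) and either Atg14, for autophagosome formation, or Uvrag, for later endosomal steps. None of the 5 passed, and 4 of the 5 were below 0. Becn1 measured 73.3, 74.8 and 70.7 CPM in WT against 65.2, 63.8 and 66.1 CPM in TRa_mKO (-0.17, SE 0.08, adjusted p = 0.296). Its genotypes did not overlap, the gap being small beside the level, and the gene has fractional counts. Atg14 measured 16.2, 15.7 and 16.8 CPM in WT against 16, 18.8 and 17.1 CPM in TRa_mKO (0.09, SE 0.10), which overlap. Pik3c3, Pik3r4 and Uvrag had fold changes of -0.09, -0.06 and -0.02, with overlapping libraries.

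Atg9a carries membrane to the growing structure, Atg2a transfers lipid into it, and Wipi1 and Wipi2 read the phosphatidylinositol 3-phosphate mark. Wipi2 had one of the smallest p-values among the members. It measured 44.8, 51 and 50.4 CPM in WT against 56.1, 58.7 and 54.9 CPM in TRa_mKO (48.7 ± 3.42 against 56.6 ± 1.95, log2 fold change 0.22, SE 0.08, adjusted p = 0.203). Every TRa_mKO library was above every WT library, by a margin close to the spread within WT. Atg9a, with the most counts of this group, measured 121, 130 and 152 CPM in WT against 154, 151 and 132 CPM in TRa_mKO (0.11, SE 0.11), and the ranges overlapped. Wipi1 and Atg2a had fold changes of 0.08 and 0.09.

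Conjugation attaches ubiquitin-like proteins to lipid. Atg7 is the activating enzyme, Atg3 and Atg10 are the conjugating enzymes, Atg12, Atg5 and Atg16l1 form the complex that directs LC3 to the membrane, and Atg4b trims LC3 and GABARAP and releases them again. None of these 7 enzymes and partners passed. Atg10 had the largest positive fold change of the 46: it measured 14.6, 10.9 and 10.5 CPM in WT against 17.6, 14.5 and 12.9 CPM in TRa_mKO (0.33, SE 0.16, adjusted p = 0.33). WT replicate 1 was above TRa_mKO replicates 2 and 3, and over all alternatives the fold change ran from 0.19 to 0.59 with the adjusted p never below 0.114. Atg3 measured 32.9, 35.7 and 35.3 CPM against 33.1, 30.7 and 32 CPM (-0.12, SE 0.08), and Atg12 36.5, 36 and 39.3 CPM against 40.6, 42.6 and 38.3 CPM (0.12, SE 0.08). Both pairs of ranges overlapped. Atg4b, Atg5, Atg7 and Atg16l1 had fold changes of -0.01, -0.10, 0.13 and -0.02, and Atg7, at 8.11 ± 0.362 CPM in WT the member with the fewest counts, has fractional counts.

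The conjugated proteins fall into the LC3 branch (Map1lc3a, Map1lc3b), important for membrane growth and cargo capture, and the GABARAP branch (Gabarap, Gabarapl1, Gabarapl2), important for closure and fusion. Gabarap measured 165, 160 and 154 CPM in WT against 171, 191 and 193 CPM in TRa_mKO (160 ± 5.78 against 185 ± 12.2, log2 fold change 0.21, SE 0.09, adjusted p = 0.261). Its 3 TRa_mKO libraries were the 3 highest. Map1lc3b measured 199, 208 and 220 CPM in WT against 217, 250 and 213 CPM in TRa_mKO (0.12, SE 0.10). Map1lc3a measured 196, 202 and 168 CPM against 164, 175 and 178 CPM (-0.13, SE 0.10). In both genes the ranges overlapped, WT replicate 3 being the lowest of WT for Map1lc3a and the highest for Map1lc3b. Gabarapl1 measured 76.7, 75.6 and 81.1 CPM in WT against 67.3, 94 and 81.9 CPM in TRa_mKO (0.06, SE 0.12), so the TRa_mKO libraries enclosed all 3 WT values. Gabarapl2 measured 116, 126 and 113 CPM against 125, 110 and 113 CPM (-0.02, SE 0.09).

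Fusion uses the SNARE proteins Stx17 and Snap29, the small GTPase Rab7, and Vps11 and Vps18, core subunits of the HOPS tether. None of the 5 passed, 4 of 5 fold changes were below 0, and their median was -0.13. Rab7, the most counted of the group, measured 466, 525 and 497 CPM in WT against 498, 426 and 338 CPM in TRa_mKO (-0.24, SE 0.14, adjusted p = 0.417). TRa_mKO replicate 1 lay inside the WT range and replicate 3 far below it. Snap29 measured 34.6, 33.1 and 33.9 CPM in WT against 33.1, 26 and 29.5 CPM in TRa_mKO (-0.20, SE 0.10, adjusted p = 0.338); before rounding, no TRa_mKO library reached the WT range. Stx17 went the other way, with 45, 49.6 and 54.9 CPM in WT against 60, 57.1 and 51.9 CPM in TRa_mKO (0.18, SE 0.10, adjusted p = 0.386), and the ranges overlapped. Vps11 and Vps18 had fold changes of -0.01 and -0.13.

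In the lysosomal membrane, Lamp1 and Lamp2 are the abundant glycoproteins, Mcoln1 is the calcium channel TRPML1, and Atp6v0d1, Atp6v1a and Atp6v1h are subunits of the proton pump that acidifies the lumen. None of the 6 passed. Atp6v1a, part of the catalytic head of the pump, measured 34.3, 37.4 and 40.7 CPM in WT against 41.7, 46.3 and 43.9 CPM in TRa_mKO (37.5 ± 3.23 against 44 ± 2.33, log2 fold change 0.23, SE 0.09, adjusted p = 0.208). Its genotypes did not overlap, whereas those of the other pump subunits among the members did: Atp6v0d1 had a fold change of -0.07 and Atp6v1h of -0.07. Of 15 further pump subunits outside the members, 0 had all TRa_mKO libraries higher and 4 had all lower. Over all genes these shares were 13.2% and 10.1%. Lamp1 measured 544, 546 and 599 CPM in WT against 597, 573 and 570 CPM in TRa_mKO (0.04, SE 0.10). Lamp2 measured 187, 193 and 218 CPM against 190, 265 and 221 CPM (0.18, SE 0.13), with TRa_mKO replicate 2 the highest and replicate 1 within the WT range. Mcoln1 measured 26.9, 28.6 and 26.3 CPM against 27.6, 24.5 and 24.3 CPM (-0.10, SE 0.09), which overlap.

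Among the hydrolases, Ctsb, Ctsl and Ctsz are cysteine cathepsins, Ctsd is the aspartic cathepsin, Ctsa is a carboxypeptidase that also shields other lysosomal enzymes, and Gaa breaks down glycogen. Ctsz (gene ID 64138), the carboxypeptidase cathepsin Z, had the most negative fold change of the 46 members and the smallest p. It measured 47, 47.9 and 44 CPM in WT against 31.4, 34.5 and 39.8 CPM in TRa_mKO (46.3 ± 2.01 against 35.2 ± 4.23, n = 3 each). All 3 TRa_mKO libraries were below all 3 WT libraries, replicate 3 being the nearest to them. The difference was -0.39 on the log2 scale (SE 0.10, interval -0.61 to -0.17), and edgeR gave an adjusted p = 0.0568, just outside the threshold. It did pass without a filter on low counts (adjusted p = 0.0406), with DESeq2 (0.0483) and without TRa_mKO replicate 3 (0.0301), and over all alternatives the adjusted p ran from 0.0301 to 0.19. Exons of Ctsz overlap those of Nelfcd on the opposite strand (36.2 CPM in WT, adjusted p = 0.876), and whether the counting used strand is not given in the sources used here. Cathepsin Z is also made by leukocytes and other non-muscle cells. The 13 leukocyte markers summed to 140, 106 and 136 CPM in WT against 84.6, 134 and 134 CPM in TRa_mKO, which overlap. The 6 endothelial markers summed to 1290, 1170 and 1040 CPM in WT against 744, 822 and 998 CPM in TRa_mKO, which do not. Their part in the Ctsz values was not tested.

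Ctsd, with the most counts of the 46, measured 779, 817 and 804 CPM in WT against 715, 735 and 661 CPM in TRa_mKO (800 ± 19.7 against 704 ± 38.1, log2 fold change -0.18, SE 0.10, adjusted p = 0.384). Ctsb measured 391, 368 and 381 CPM in WT against 406, 444 and 438 CPM in TRa_mKO (0.18, SE 0.10, adjusted p = 0.381). Both had their genotypes apart, in opposite directions and at about the same size. Ctsb has fractional counts, and its exons overlap those of Fdft1 on the opposite strand (85.2 CPM in WT, adjusted p = 0.118). Ctsa measured 94.1, 89.1 and 91.2 CPM against 97.9, 94.8 and 95.2 CPM (0.07, SE 0.08). It is the tightest gene of this group in TRa_mKO, and it too has fractional counts. Exons of Ctsa overlap those of Neurl2 (27.1 CPM in WT) and Pltp (45.1 CPM) on the opposite strand. Ctsl and Gaa, with fold changes of 0.06 and -0.05, overlapped.

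**Figure D2:**
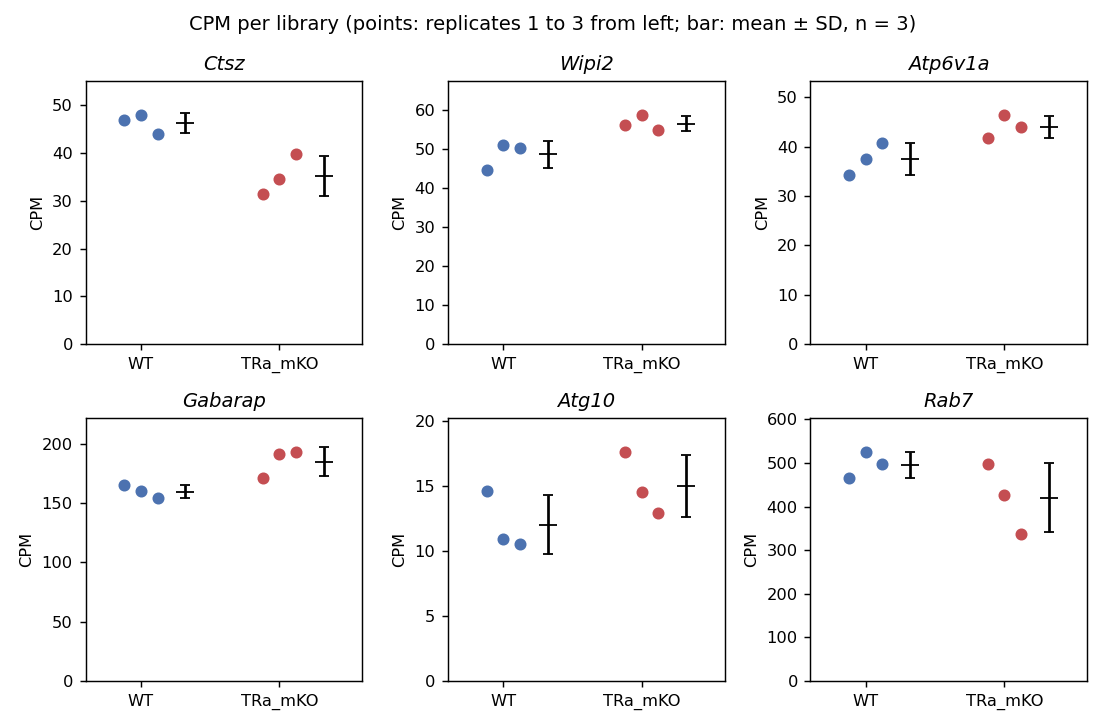
CPM (vertical axis, from 0) in each library for the 4 members with an unadjusted p below 0.05 and for Atg10 and Rab7, with WT in blue, TRa_mKO in red, and mean ± SD (n = 3) beside the points. Ctsz, Wipi2, Atp6v1a and Gabarap have the genotypes apart, with Ctsz lower and the others higher in TRa_mKO, while the ranges of Atg10 and Rab7 overlap.

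The transcription factors did not pass either. Tfeb measured 54.9, 66.5 and 65.4 CPM in WT against 59, 67 and 61.7 CPM in TRa_mKO (0.01, SE 0.10, 95% confidence interval -0.21 to 0.23, fractional counts). Mitf measured 20.5, 22.5 and 21.5 CPM against 21.1, 18.2 and 18.2 CPM (-0.17, SE 0.10), and Tfe3 19.2, 19.1 and 19.3 CPM against 16.3, 16.9 and 19.6 CPM (-0.12, SE 0.10). In each gene at least 1 TRa_mKO library lay within or above the WT range. A transcript level does not report the activity of TFEB, TFE3 or MITF, which is set largely by phosphorylation and entry into the nucleus. The 10 members whose promoter held TCACGTG had a median fold change of -0.01 (range -0.18 to 0.23, 5 above 0 and 5 below). The other 27 members with a promoter sequence had a median of 0.05 (range -0.39 to 0.33). Of the 6 members whose windows are printed, Atp6v1a and Ctsd had the widest fold changes, 0.23 and -0.18, in opposite directions, and Ctsa, Atp6v0d1, Mcoln1 and Atg3 had 0.07, -0.07, -0.10 and -0.12.

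Levels were compared between genes per kilobase of the longest protein-coding GENCODE transcript. On this scale the order in WT began with Ctsd (376 ± 9.28 CPM per kilobase), Lamp1 (252 ± 14), Rab7 (230 ± 13.7), Map1lc3a (170 ± 16.6) and Gabarap (118 ± 4.28), and each of these 5 had its WT libraries apart from those of the next. It ended with Atg7 (2.08 ± 0.0929 CPM per kilobase). The first 5 thus held 2 genes of the lysosome, 2 of the LC3 and GABARAP proteins and 1 of fusion. Among the conjugation enzymes and their partners the highest was Atg3 (16.8 ± 0.73 CPM per kilobase). Within the LC3 and GABARAP group the order in WT was Map1lc3a, Gabarap, Map1lc3b (79.3 ± 4.15), Gabarapl2 (70.4 ± 3.95) and Gabarapl1 (42.7 ± 1.59), again with libraries apart between neighbours of the group. In TRa_mKO, the same 5 genes held 155 ± 6.28, 137 ± 9.03, 86 ± 7.68, 69.2 ± 4.75 and 44.5 ± 7.35 CPM per kilobase. Of the 45 neighbouring pairs in the whole order, 31 overlapped in WT and were not separated by these libraries. A shorter transcript in use than the longest one would raise a gene in this order.

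**Figure D3:**
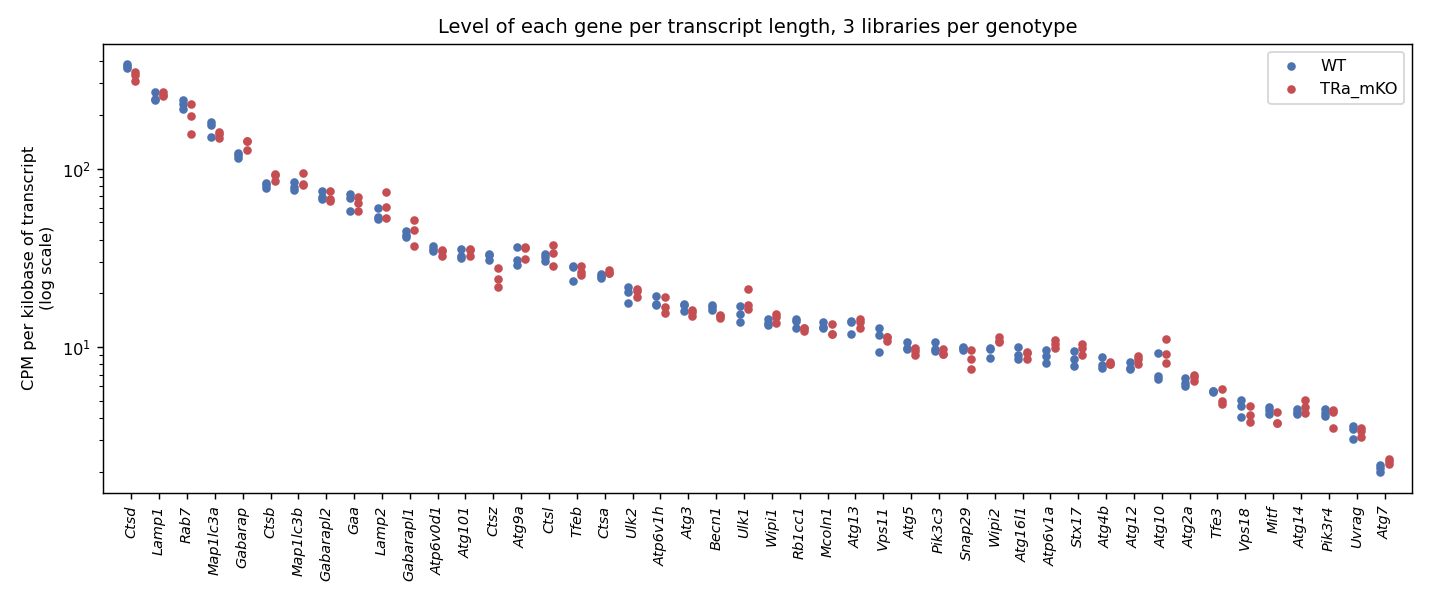
CPM per kilobase of transcript (log axis) of the 46 genes, ordered by the WT mean, with 3 WT libraries in blue and 3 TRa_mKO libraries in red. Levels run from 376 (Ctsd) to 2.08 (Atg7) CPM per kilobase in WT, a span far wider than the distance between the genotypes of any gene.

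To set the members in their pathway, 110 further autophagy and lysosome genes were read from the same fit. Of these, 0 were higher and 1 was lower in TRa_mKO past the test (0.909%, against 4.17% of all genes), with a median of -0.04. Npc1, which exports cholesterol from the lysosome, fell from 118, 102 and 100 CPM to 76.6, 78.9 and 57.7 CPM (-0.59, SE 0.13, adjusted p = 0.0323). The genotypes were well apart, and the gene has fractional counts. The Npc1 call held without TRa_mKO replicate 1 and ended without each of the other libraries in turn (adjusted p = 0.0603 to 0.0926), and without the haemoglobin-richest library of each genotype (0.139). At an unadjusted p below 0.05, 7 of the 110 were higher and 7 lower (10.2% and 7.72% of all genes).

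By role, 33 further hydrolases and their helpers held this call, and their median was -0.06. Among them Ctsc, cathepsin C, an activator of serine proteases in leukocytes, measured 74.7, 69.5 and 88.5 CPM in WT against 128, 111 and 93.7 CPM in TRa_mKO (0.51, SE 0.13, adjusted p = 0.0587). Its genotypes were apart, opposite in direction to Ctsz. There were 0 calls in edgeR among 15 other core autophagy genes (4 at an unadjusted p below 0.05), 8 cargo receptors (0), 12 other fusion genes (1), 15 other proton pump subunits (0) and 27 genes of mTORC1, the kinase complex that restrains autophagy, and its lysosomal partners (1). DESeq2 and limma-voom also called 0 genes of these 5 lists, but without TRa_mKO replicate 1 edgeR called Atg4a, a protease of the core list. Among the hydrolases DESeq2 called Npc1 and Ctsc, limma-voom called Npc1, and edgeR without TRa_mKO replicate 3 called Ctsc. Sqstm1, the cargo receptor p62, measured 730 ± 108 CPM in WT and 644 ± 100 CPM in TRa_mKO (-0.18, SE 0.15, adjusted p = 0.576).

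**Figure D4:**
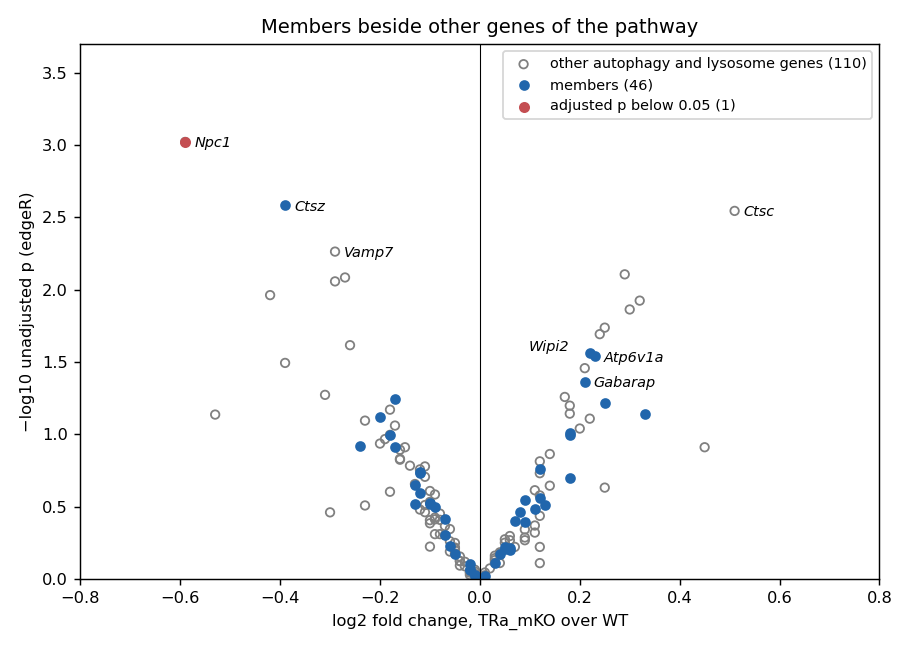
Log2 fold change of TRa_mKO over WT (horizontal axis) and −log10 of the unadjusted edgeR p (vertical axis) for the 46 members (blue) and 110 other autophagy and lysosome genes (open circles), with the 1 gene past the adjusted threshold in red. Npc1 lies highest on the left, Ctsz below it, and Ctsc highest on the right.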

How the data were processed

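The authors deposited estimated counts of reads per gene, unnormalized per the file headers, of which 9.6% to 10.0% in a library were not whole. They were rounded before testing. Fractional counts were taken as a sign of reads shared with other features (6 members). The submitters' processing notes name the tools FastQC 0.11.9, MultiQC 1.12, Trimmomatic 0.39 and featureCounts. As builds they list GRCm38.p6, GRCm39 and mm10. Aligner, annotation and strand setting were not given in the sources used.

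All genes were fitted together in edgeR 4.0.16 (R 4.3.3): filterByExpr with a minimum count of 10, TMM, robust quasi-likelihood test, two-sided, genotype as the single factor. Adjusted p (Benjamini-Hochberg over 13118 genes) below 0.05 counted as passing. CPM are TMM-scaled, with 95% confidence intervals for fold changes. Library totals were 12390527 to 14488500 counts, and the common biological coefficient of variation was 11.8%. The test was run on simulated data first, where the share of false calls lay above the nominal threshold. Labels do not tie libraries to litters. The correlation of deviations of same-numbered libraries was -0.18, 0.01 and -0.03, so the numbers were not taken to pair them.

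Alternatives were other scaling (DESeq2 size factors, library size only), other filters, DESeq2 1.42.0, limma-voom (limma 3.58.1), leaving out the 10 most abundant genes, a replicate block, each library left out, the haemoglobin-richest library of each genotype left out, genes with fractional counts left out, and other thresholds. Per-library values are given for Thra, for members with an unadjusted p below 0.05, for the LC3 and GABARAP genes, and for the member with the highest fold change, the lowest and the most counts in each step; other pathway genes are named where they passed, and Ctsc, Sqstm1 and further members were added after their values were seen. Members and lists were chosen with earlier results of these data known. Exon overlaps and lengths came from GENCODE vM21, and promoters were matched by symbol to RefSeq. Exons of 8 members overlap those of another tested gene on the opposite strand: Atg9a, Becn1, Ctsa, Ctsb, Ctsz, Lamp1, Map1lc3b and Snap29. Of 111 other pathway symbols, 110 were tested, and Atp6v0d2 did not pass the filter. Some further genes of the lists stayed in the fit and are not reported here.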

Additional observations from a re-analysis of the deposited data

How the results depend on the processing

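The count of members passing the test was 0 under every alternative except 4, which each called Ctsz alone: no filter on low counts (1), DESeq2 (1), an adjusted p below 0.10 (1) and the fit without TRa_mKO replicate 3 (1), so that the fits without 1 library ran from 0 to 1. Other pathway genes passing numbered 1 (Npc1), against 2 (with Ctsc) without a filter on low counts and with DESeq2. There were 0 without the haemoglobin-richest library of each genotype (WT replicate 1 and TRa_mKO replicate 3). At 0.10 there were 3 (with Ctsc and Vamp7), and at 0.01 there were 0. Fits without 1 library gave 0 to 2, the 2 being Npc1 and Atg4a, without TRa_mKO replicate 1. Without TRa_mKO replicate 3 the 1 gene passing was Ctsc, and Npc1 did not pass. Leaving out genes with fractional counts gave 0, but it removed Npc1 itself before the fit. That setting therefore could not test the Npc1 call. All genes passing numbered 547, against 357 with the replicate block, 267 without the haemoglobin-richest libraries, 934 at 0.10, 173 at 0.01 and 209 (without TRa_mKO replicate 2) to 595 (without TRa_mKO replicate 1) without 1 library. They were also fewer without WT replicate 2 (361) and WT replicate 3 (310). Of all genes passing, 60.5% were higher in TRa_mKO, and 45.5% with library size only, which moved the median of all genes to -0.05. With the replicate number as a block Npc1 still passed (adjusted p = 0.0395). Not every library correlated best with the one of its own number.

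Median fold changes were compared with the SD of that median between libraries of one genotype (log2 0.020 for conjugation to 0.106 for fusion). The fusion median (-0.13) moved by less than this under every alternative. Its SD, the largest of the steps, is close in size to the median, so this does not show that the median was stable. Over the fits without 1 library it ran from -0.19 (without WT replicate 1) to -0.05 (without WT replicate 3). Other medians moved by more than their own SD. With library size only, the median of all genes was -0.05. The median was then also -0.05 over all members, -0.02 for conjugation, -0.06 for the lysosome and -0.17 for the transcription factors. It was -0.04 over all members without the haemoglobin-richest libraries. Without genes with fractional counts it was -0.01 for conjugation and -0.07 for the lysosome. These medians are over fewer genes: Atg7 (0.13 in the main fit) left conjugation, and Ctsa (0.07) and Ctsb (0.18) left the lysosome. Over the fits without 1 library it ran from -0.06 to 0.04 over all members, from -0.01 to 0.09 for initiation, from 0.00 to 0.07 for conjugation, from -0.06 to 0.04 for the lysosome and from -0.13 to -0.07 for the transcription factors. Of single members, 14 with fold changes close to 0, none of them past the threshold, changed sign. With library size only, Ulk2 was at -0.02, Atg13 -0.01, Atg101 0.00, Lamp1 -0.01 and Tfeb -0.04. Tfeb was at 0.00 without the 10 most abundant genes, and Vps11 at 0.00 with limma-voom and with the replicate block. Without the haemoglobin-richest libraries Ulk2 and Tfeb were both at -0.07. Over the fits without 1 library the fold changes that crossed 0 ran from -0.06 to 0.10 in Ulk2, from -0.03 to 0.09 in Atg13, from -0.09 to 0.06 in Tfeb, from -0.10 to 0.03 in Uvrag, from -0.07 to 0.05 in Atg16l1, from -0.08 to 0.02 in Gabarapl2, from -0.13 to 0.10 in Vps11, from -0.06 to 0.05 in Atg4b, from -0.14 to 0.02 in Gaa, from -0.13 to 0.04 in Pik3r4, from -0.07 to 0.18 in Gabarapl1 and from -0.05 to 0.16 in Ctsl. The causes were not tested. Fits without 1 library rest on fewer samples. The SE of the fold change was 0.10 for Ctsd (800 CPM in WT) and 0.12 for Atg7 (8.11 CPM).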

Other observations

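Libraries of one genotype differed across the members. Of the 46 members, WT replicate 1 had the lowest CPM of the 6 libraries in 17 and the highest in 1, and WT replicate 2 the highest in 16. TRa_mKO replicate 2 was the highest in 12, among them Ulk1 (110 CPM), Map1lc3b (250 CPM), Gabarapl1 (94 CPM), Lamp2 (265 CPM) and Ctsl (231 CPM). The median log2 difference from the WT mean over the members was -0.05 in WT replicate 1 and 0.04 in TRa_mKO replicate 2. The same counts and medians were not computed over all genes, so whether this order is particular to the members is not known.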
